A study of Oryctolagus cuniculus with 4 samples.

Results

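The thrombospondin family was represented by 4 genes, THBS1, THBS2, THBS3 and THBS4, taken by their symbols from a table of 20294 genes, each with 1 annotated transcript. A further family member, COMP, had no entry under that symbol, so it is not described here. The samples were 4 intact semitendinosus tendons, the hamstring tendon harvested as graft material, each taken from a different female rabbit of the New Zealand White breed at an age of 193 days. They carry 1 label and form a single group, with no treatment or control. Surface muscle had been scraped off and poly(A) RNA sequenced from the whole ground tendon, so every cell type of the tissue contributes. Genes of the tendon fibroblast were present: FMOD (fibromodulin) had a mean of 5987 ± 3055 TPM, TNMD (tenomodulin) 136 ± 70.9 TPM and the transcription factor gene MKX 113 ± 41.6 TPM (SD, n = 4), while SCX had no entry. Levels are in TPM, in which counts are divided by transcript length and every tendon has an equal sum. In bulk tissue, fewer cells of a type and less RNA per cell cannot be told apart.

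Thrombospondins are secreted, calcium-binding glycoproteins that assemble into multimers and link collagens, other matrix proteins and cell-surface receptors. THBS1 and THBS2 form trimers and carry type 1 repeats, the domain that binds the receptor CD36 and, in THBS1, takes part in the activation of latent TGF-beta. THBS3, THBS4 and COMP form pentamers and lack these repeats. In tendon, THBS4 and COMP are known as structural matrix proteins, THBS4 also of the junction with muscle, and THBS2 is known for its part in collagen fibril assembly.

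Of all TPM, the 4 genes held 1.21% in tendon 1, 1.08% in tendon 2, 0.817% in tendon 3 and 0.751% in tendon 4, on average 0.965% ± 0.218 (SD, n = 4). As a share of estimated counts, which gives long transcripts more weight, the mean was 2.20% ± 0.42. THBS4 and THBS1 made up most of this. THBS4 provided 60.03%, 73.4%, 69.4% and 62.9% of the family's TPM in tendons 1 to 4, and THBS1 35.5%, 22.9%, 27.6% and 32.0%. THBS2 provided between 1.70% and 4.08% and THBS3 between 0.849% and 1.30%.

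**Figure D1:**
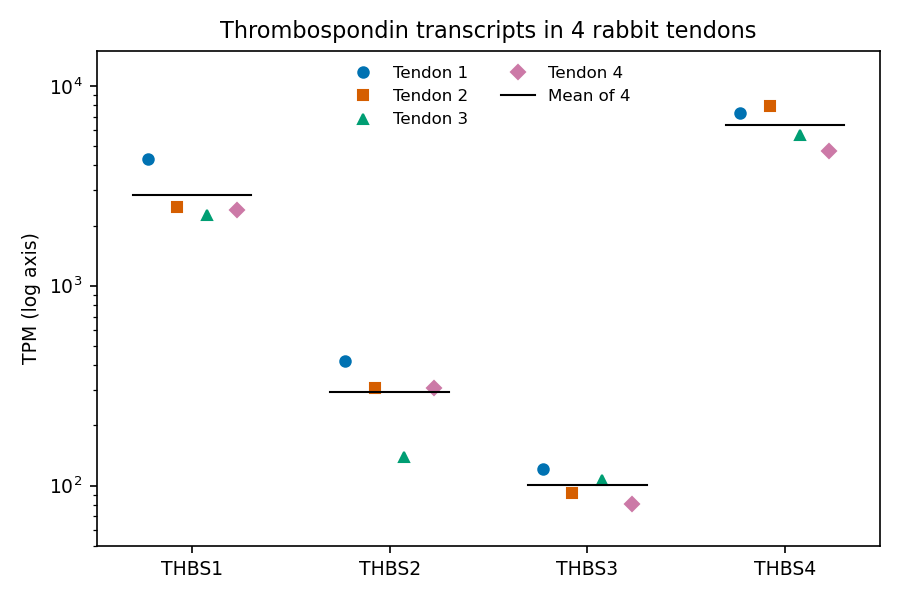
TPM on a log axis of the 4 thrombospondin genes, with 1 symbol per tendon and the mean of 4 tendons as a bar. THBS4 lay between 4721 and 7922 TPM and THBS1 between 2256 and 4311 TPM, while THBS2 and THBS3 stayed at or below 418 TPM.

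THBS4, a pentameric thrombospondin of tendon and muscle matrix, was the most abundant member. The gene (ENSOCUG00000009244.3, protein coding) lies on chromosome 11 of OryCun2.0, 747007 to 792130, plus strand, with an annotated transcript of 3526 bases. THBS4 stood at 7286, 7922, 5669 and 4721 TPM in tendons 1 to 4, with a mean of 6399 ± 1467 TPM (SD, n = 4). The values of tendons 1 and 2 were above those of tendons 3 and 4. Its mean ranked 18 among all 20294 genes and 17 among named genes, and its rank within a tendon was 14, 14, 16 and 21. The closest named genes by mean were GSN, the actin-severing gelsolin, at 6883 ± 1379 TPM and FMOD at 5987 ± 3055 TPM. GSN was above THBS4 in 2 of 4 tendons, as was FMOD, so this order was within the spread. The counts behind these values were 256722, 477528, 306045 and 279732.

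THBS1, a trimeric thrombospondin that inhibits angiogenesis and is also released by platelets, was the next in level. The gene (ENSOCUG00000003792.3, protein coding) lies on chromosome 17, 32567494 to 32582489, minus strand, with an annotated transcript of 5631 bases. THBS1 stood at 4311 TPM in tendon 1 and at 2470, 2256 and 2399 TPM in tendons 2 to 4, with a mean of 2859 ± 972 TPM (SD, n = 4). In TPM, tendon 1 was apart from the others, which differed among themselves by 1.09-fold. After TMM scaling tendon 1 was still the highest, but the others differed by 1.20-fold and the gap of tendon 1 as a share of the whole range was 0.761, below Dixon's critical value of 0.83, against 0.896 in TPM. The mean without tendon 1 was 2375 TPM. The rank of the mean was 35 among all genes. The named genes next to it were ND2, a mitochondrial complex I gene, at 3277 ± 690 TPM and RPS3A, a ribosomal protein gene, at 2722 ± 183 TPM. Both lay above THBS1 in tendons 2 to 4 and below it in tendon 1, so this order was also within the spread.

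THBS2, the other trimeric member, was lower. The gene (ENSOCUG00000005371.3, protein coding) lies on the unplaced scaffold GL019051, 67792 to 97500, plus strand, with an annotated transcript of 5226 bases. THBS2 stood at 418, 309, 139 and 306 TPM in tendons 1 to 4, with a mean of 293 ± 115 TPM (SD, n = 4). Tendon 3 had the lowest level and tendon 1 the highest. The rank of the mean was 428 among all genes, beside HDLBP, a gene for a lipoprotein-binding protein, at 294 ± 29.1 TPM, and the fibril-associated collagen gene COL14A1 at 292 ± 39.7 TPM. COL14A1 was above THBS2 in 1 tendon and HDLBP in 2.

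THBS3, a pentameric member known from skeletal tissues, had the lowest level. The gene (ENSOCUG00000010032.3, protein coding) lies on chromosome 13, 37492021 to 37500625, plus strand, with an annotated transcript of 3793 bases. THBS3 stood at 122, 91.7, 107 and 80.8 TPM in tendons 1 to 4, with a mean of 100.1 ± 17.8 TPM (SD, n = 4). No tendon was apart from the rest. The rank of the mean was 1433, so that 92.9% of genes in the table had a lower mean. YME1L1, a mitochondrial protease gene, at 100.2 ± 7.88 TPM and the vesicle transport gene USO1 at 100.03 ± 6.58 TPM were its neighbours, each above it in 2 tendons.

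The 4 levels came in the same order in every tendon, THBS4 above THBS1 above THBS2 above THBS3. THBS4 was 1.69-, 3.21-, 2.51- and 1.97-fold above THBS1 in tendons 1 to 4 (mean log2 ratio 1.19 ± 0.41, SD, n = 4; exact two-sided sign-flip permutation test, p = 0.13). The gap was narrowest in tendon 1. In CPM, which has an equal sum per tendon but no division by length, the ratio of THBS4 to THBS1 was 1.06, 2.01, 1.57 and 1.23, since the transcript of THBS1 is the longer. THBS2 stood at 0.0971, 0.1251, 0.0615 and 0.1276 times THBS1 (mean log2 ratio -3.34 ± 0.49; exact permutation test, p = 0.13). Among these, tendon 3 had the lowest ratio.

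THBS3 was the closest to THBS2. Its TPM was 0.290, 0.297, 0.768 and 0.264 times that of THBS2 (mean log2 ratio -1.46 ± 0.72, SD, n = 4; exact permutation test, p = 0.13). In tendon 3 the pair was therefore closer than in any other tendon, with THBS2 at 139 TPM and THBS3 at 107 TPM. Between the pentameric members, THBS4 exceeded THBS3 53.2- to 86.4-fold (mean log2 ratio 5.99 ± 0.31; exact permutation test, p = 0.13). The ratio of THBS4 to THBS2 ran from 15.4 to 40.9, and that of THBS3 to THBS1 from 0.0282 to 0.0472, again with p = 0.13 by the exact permutation test. Of 6 pairs compared, each pointed 1 way in 4 of 4 tendons, and the p of 0.13 (2 of 16 arrangements of signs), the same after Benjamini-Hochberg adjustment over the 6 pairs, is the smallest that 4 tendons allow, so none could reach 0.05. Each gap between neighbours in the order was larger than the SD of its own ratio.

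**Figure D2:**
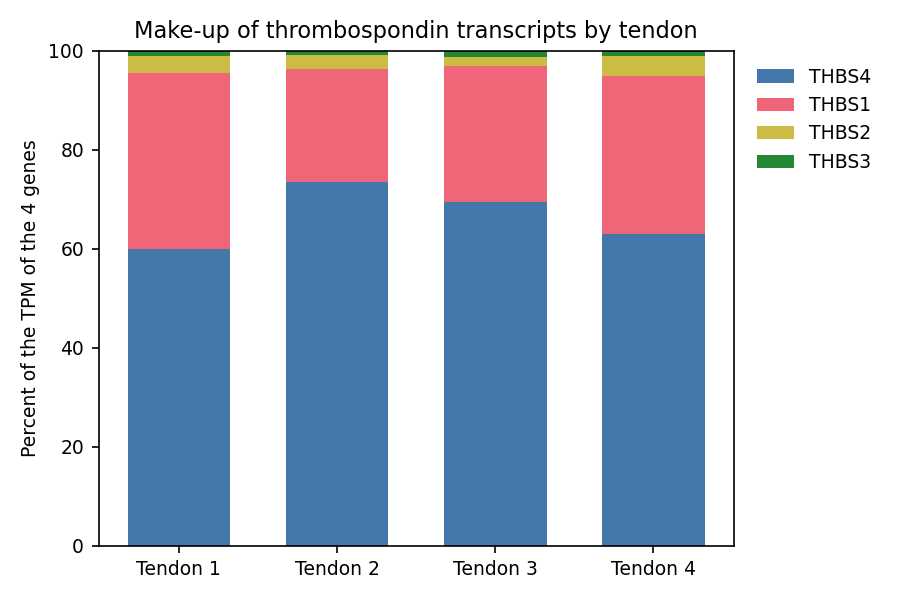
Percent of the summed TPM of the 4 thrombospondin genes taken by each gene in tendons 1 to 4. THBS4 took between 60.03% in tendon 1 and 73.4% in tendon 2, and THBS1 took most of the remainder.

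The pentameric pair THBS3 and THBS4 together outweighed the trimeric pair THBS1 and THBS2 in all 4 tendons. The ratio of their summed TPM was 1.57, 2.88, 2.41 and 1.78 in tendons 1 to 4, which averages 2.16 ± 0.602 (SD, n = 4). Without length correction it was 0.988, 1.82, 1.52 and 1.12, so tendon 1 lay just below equality on that scale. COMP, a further pentameric member, is not in these sums.

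The 4 genes differed in how far they varied between tendons. THBS2 varied most, with the highest tendon 3.02-fold above the lowest, followed by THBS1 at 1.91-fold, THBS4 at 1.68-fold and THBS3 at 1.50-fold. This order was not the same under each setting: THBS4 ranged 1.89-fold with TMM scaling, further than THBS1 at 1.84-fold, and without tendon 3 THBS2 ranged 1.37-fold, less than each of the others. THBS2 was the 1 member of 4 with a range of at least 2-fold, a range reached by 10.8% of the 8729 genes whose mean was 10 TPM or more. A range of at least 1.5-fold was reached by 31.7% of those genes and by all 4 members. The median gene ranged 1.35-fold. A range as wide as that of THBS2 was seen in 4.09% of genes, as wide as that of THBS1 in 12.3%, of THBS4 in 19.8% and of THBS3 in 31.2%. The range of THBS1 fell to 1.09-fold without tendon 1, and that of THBS2 to 1.37-fold without tendon 3, so each rests on 1 tendon. Counting error was small beside these ranges: for THBS3, the lowest member, the share of counts in tendon 4 was 0.0171%, with a 95% binomial (Wilson) confidence interval from 0.0167% to 0.0176%, and such intervals cover counting error only.

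**Figure D3:**
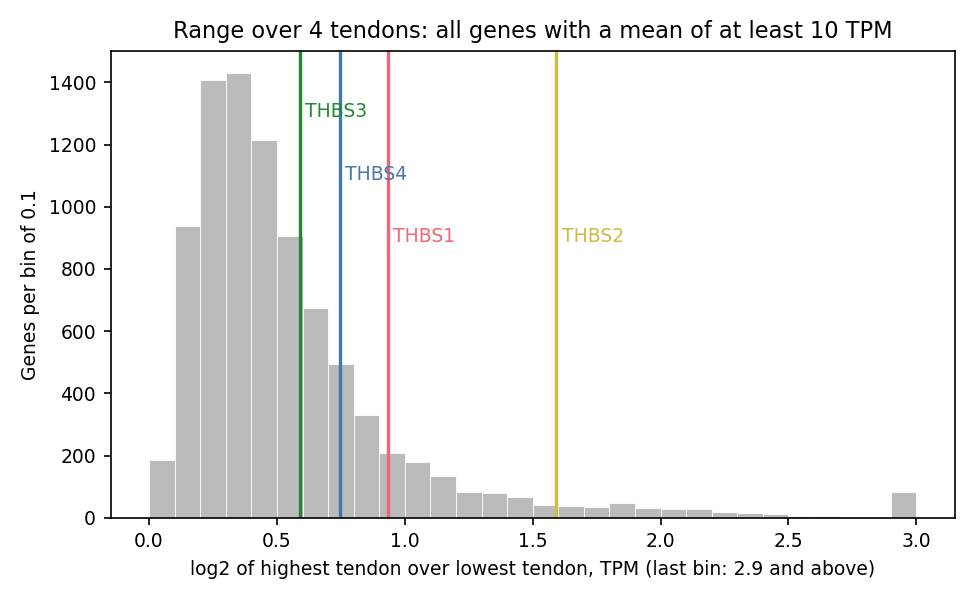
Number of genes by the log2 ratio of their highest to their lowest tendon, for 8729 genes whose mean was 10 TPM or more, in bins of 0.1, with the 4 thrombospondins as vertical lines. THBS3, THBS4 and THBS1 lie to the right of the peak, at 1.50-, 1.68- and 1.91-fold, and THBS2 lies in the tail at 3.02-fold.

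The tendons that were high or low were not the same for each member. THBS1, THBS2 and THBS3 were highest in tendon 1 and THBS4 in tendon 2. Of the 7008 named genes whose mean was 10 TPM or more, 44.6% were highest in tendon 1 and 13.2% in tendon 2. THBS1 and THBS2 were lowest in tendon 3, and THBS3 and THBS4 in tendon 4. These highest and lowest tendons were the same in TPM, in CPM, after TMM scaling and with DESeq2 size factors. On centred log2(TPM + 1), THBS1 was 0.65 above its own mean in tendon 1 and between -0.29 and -0.16 in the other tendons. THBS2 was 0.62 above its mean in tendon 1 and -0.97 in tendon 3. THBS3 ran from -0.29 to 0.29, and THBS4 from -0.41 in tendon 4 to 0.34 in tendon 2.

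Likeness of pattern was measured as the root mean square difference of centred log2(TPM + 1) over the 4 tendons, among the 7008 named genes whose mean was 10 TPM or more. Over so few tendons many genes resemble any member, and the values are descriptive. For THBS4 the closest genes were DNAJB9 (0.0377), TMEM45A (0.0477), AGAP1 (0.0593), HSPA5 (0.0624) and TMEM150C (0.0737). DNAJB9 and HSPA5 encode chaperones of the endoplasmic reticulum. HSPA5 stood at 564, 611, 395 and 359 TPM and DNAJB9 at 112, 120, 84.9 and 75.6 TPM in tendons 1 to 4. As with THBS4, tendon 2 was the highest and tendon 4 the lowest for both. For THBS4, 15 genes lay within a difference of 0.1, and the median gene lay at 0.351.

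For THBS2 the closest genes were COL12A1 (0.142), a fibril-associated collagen, ADAMTS17 (0.143), a secreted protease with type 1 repeats, SPARC (0.187), a collagen-binding glycoprotein, DPP4 (0.210) and KIAA1024 (0.217). No gene lay within 0.1 of THBS2. COL12A1 stood at 1002, 774, 406 and 682 TPM in tendons 1 to 4, and SPARC at 15830, 12318, 6333 and 9694 TPM. In both, tendon 1 was the highest and tendon 3 the lowest, as for THBS2. For THBS1 the closest genes were ST8SIA1 (0.0207), a ganglioside synthesis gene, the cytokine gene IL34 (0.0535), ACKR2 (0.0590), CCDC57 (0.0596) and PLCL1 (0.0670). ST8SIA1 stood at 32.1, 18.4, 16.3 and 18.1 TPM, far below THBS1 itself. For THBS3, 315 genes lay within 0.1, led by ASAP3 (0.00867), OCIAD1 (0.0155), CFLAR (0.0175), SEC63 (0.0191) and TNFAIP2 (0.0252). In CPM, 15 of these 20 genes were again among the 5 closest. Centring removes the length of a gene with a single transcript, and scaling of a tendon shifts all genes nearly alike. Most of this overlap was therefore fixed in advance, so it is no test of stability.

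**Figure D4:**
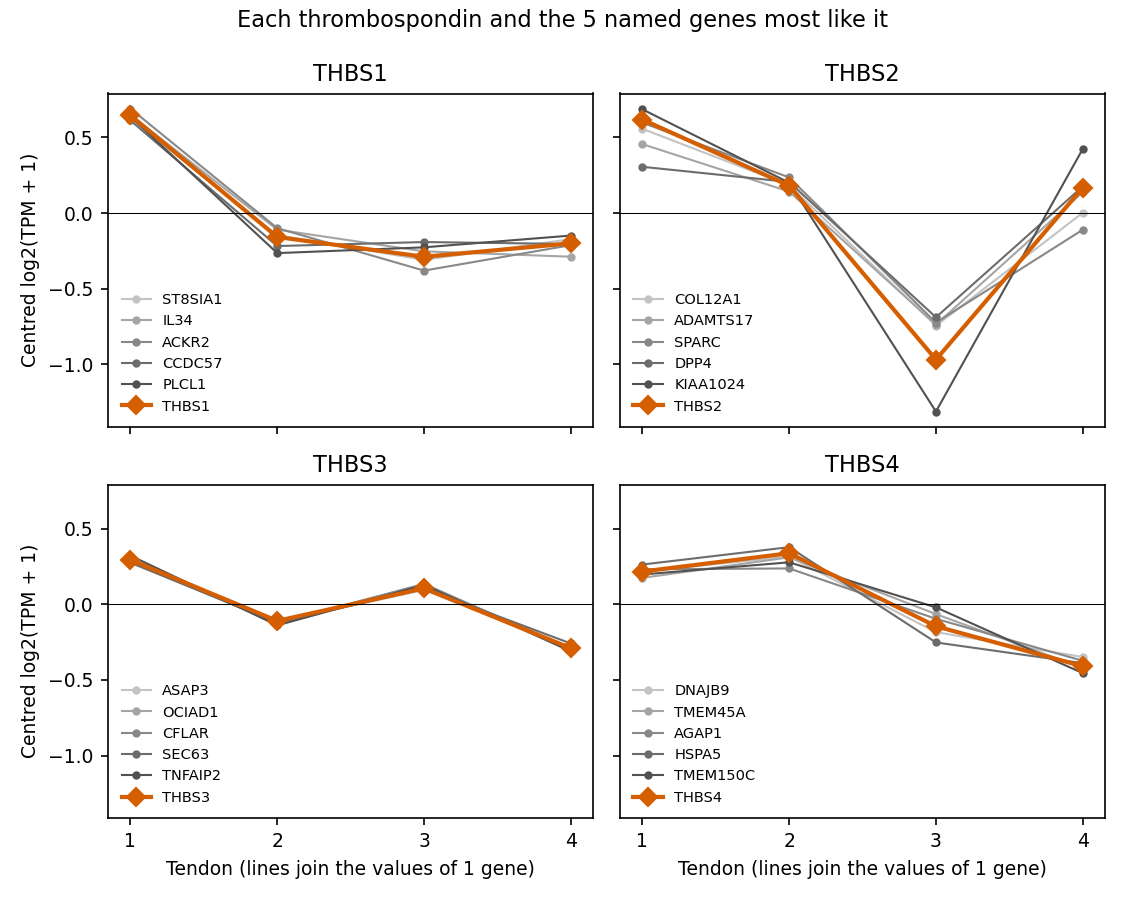
Centred log2(TPM + 1) in tendons 1 to 4 of each thrombospondin (thick line with diamonds) and of the 5 named genes most like it (thin lines). THBS1 stands out in tendon 1, THBS2 falls to -0.97 in tendon 3, THBS3 stays within 0.29 of its mean, and THBS4 is lowest in tendon 4.

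No member was among the 5 closest genes of another. THBS2 and THBS1 differed by a root mean square of 0.422, THBS4 and THBS3 by 0.266 and THBS3 and THBS2 by 0.623. The place of a member depended on the gene it was set against. By likeness to THBS2, from which the median gene differed by 0.600, THBS1 came at position 195 of the 7007 other named genes, while by likeness to THBS1, THBS2 came at position 4802. By likeness to THBS4, THBS3 came at position 995 and THBS1 at 3512.

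Thrombospondins act partly through cell-surface receptors, and 12 receptor genes had an entry, while CD47, CALR and ITGB3 had none. Of the 12, 10 had a mean of at least 10 TPM and 3 a mean of at least 100 TPM, with a median of 55.6 TPM. Over all 13225 named genes, 53.0% reached 10 TPM, 7.71% reached 100 TPM and the median was 11.8 TPM. The highest was ITGB1, the common integrin beta chain, at 619 ± 62.6 TPM (SD, n = 4). LRP1, an endocytic receptor that clears thrombospondins, stood at 602, 331, 419 and 324 TPM in tendons 1 to 4. SDC4, a heparan sulfate proteoglycan of the cell surface, stood at 618, 479, 226 and 270 TPM. Both were highest in tendon 1, as was THBS1. Of the 12 receptor genes, 5 were highest in tendon 1, 6 in tendon 4 and 1 in tendon 3. Over the 7008 named genes whose mean was 10 TPM or more, 44.6% were highest in tendon 1, 13.2% in tendon 2, 14.7% in tendon 3 and 27.5% in tendon 4.

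CD36, which binds the type 1 repeats of THBS1 and THBS2, was lower and was not highest in tendon 1. CD36 stood at 27.3, 47.1, 50.9 and 101 TPM in tendons 1 to 4, lowest in tendon 1 and highest in tendon 4. CD36 is also a gene of adipocytes, endothelium and macrophages. The 5 measured adipocyte genes summed to 247, 400.3, 542 and 1028 TPM, the 10 endothelial genes to 255, 317, 428 and 402 TPM and the 10 macrophage genes to 93.4, 77.2, 181 and 248 TPM. Their part in the level of CD36 was not tested. The integrin chain ITGAV stood at 81.8, 36.2, 53.1 and 43.6 TPM, and ITGA3 and ITGA4 were below 10 TPM, at 4.70 ± 1.24 and 6.00 ± 1.92 TPM. CACNA2D1, a calcium channel subunit that binds thrombospondins, had 52.1 ± 10.6 TPM. SDC4, CD36 and ITGAV ranged at least 2-fold, 3 of 10 against 10.8% of genes.

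THBS1 exceeded each of the 12 measured receptor genes in every tendon. It was 7.16-, 7.46-, 5.38- and 7.41-fold above LRP1 (mean log2 ratio 2.76 ± 0.23, SD, n = 4; exact permutation test, p = 0.13). It was 6.15-fold above ITGB1 in tendon 1 and 3.89- to 4.12-fold in the others (mean log2 ratio 2.16 ± 0.31; exact permutation test, p = 0.13). These ratios and those to matrix and repeat genes given below, 11 in all, were chosen after the levels were seen. The adjusted p over the 11 was 0.153 for each ratio that pointed 1 way in 4 of 4 tendons.

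Latent TGF-beta, which THBS1 can activate, was represented by 13 measured genes of its ligands, binding proteins, receptors and responses. All had a mean of at least 10 TPM, against 53.0% of named genes. TGFB1 had no entry. The ligand genes TGFB3 and TGFB2 had 71.3 ± 20.8 and 37.9 ± 3.85 TPM (SD, n = 4). Among receptors, TGFBR3, the coreceptor betaglycan, had 163 ± 44.5 TPM and TGFBR2 104 ± 13.9 TPM. LTBP2, of the latent TGF-beta binding protein family, had 156 ± 25.7 TPM, and TGFBI, a TGF-beta induced matrix gene, had 235 ± 53.8 TPM. CTGF, a response gene, stood at 577, 383, 469 and 346 TPM in tendons 1 to 4, highest in tendon 1 and lowest in tendon 4. SKIL, a feedback inhibitor, ranged at least 2-fold, at 81.0, 37.9, 59.6 and 37.5 TPM, and was the 1 gene of 13 to do so, a share near the 10.8% of all genes tested.

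**Figure D5:**
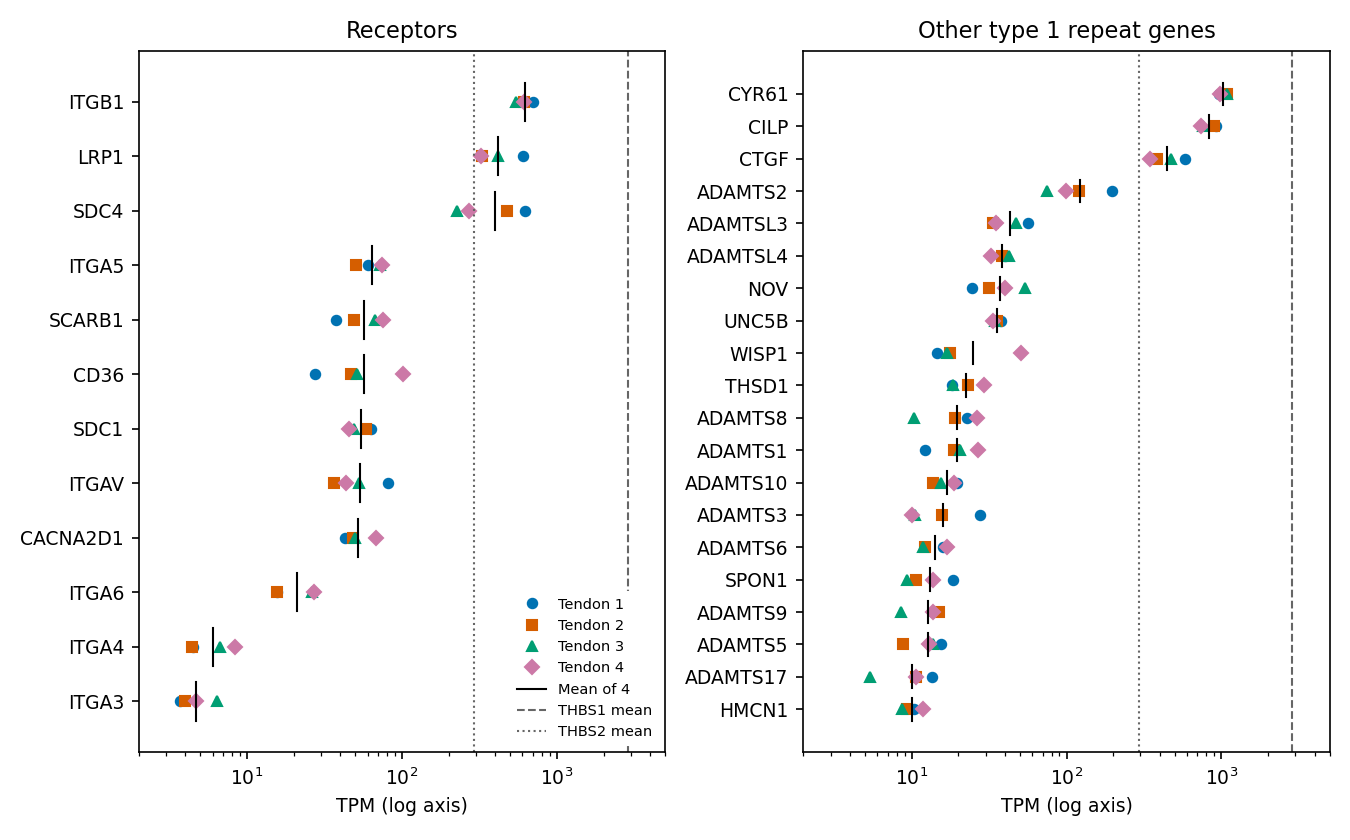
TPM on a log axis of the 12 measured receptor genes (left) and of the 20 other type 1 repeat genes whose mean was 10 TPM or more (right), with 1 symbol per tendon, the mean of 4 as a bar and the means of THBS1 and THBS2 as vertical lines. No gene in either panel reached the mean of THBS1, and 3 receptor genes and 3 repeat genes lay above the mean of THBS2.

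Type 1 repeats occur in many other proteins, both secreted and of the cell membrane, and 46 of their genes had an entry. Of these, 20 had a mean of at least 10 TPM and 4 a mean of at least 100 TPM, with a median of 5.85 TPM. Over named genes, 53.0% reached 10 TPM, 7.71% reached 100 TPM and the median was 11.8 TPM. Of the 20, 7 ranged at least 2-fold, against 10.8% of all genes tested. In CPM, 29 of 46 reached a mean of 10. The highest were 2 genes of the CCN family of matricellular proteins and the cartilage intermediate layer protein gene CILP. CYR61 stood at 1023 ± 64.1 TPM, CILP at 831 ± 94.8 TPM and CTGF at 444 ± 103 TPM (SD, n = 4). ADAMTS2, which cleaves procollagen, had 123 ± 53.4 TPM, and ADAMTSL3 43.0 ± 10.9 TPM.

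THBS1 was above CYR61, CILP and CTGF in 4 of 4 tendons. THBS1 was 4.48-fold above CYR61 in tendon 1 and 2.29-, 2.09- and 2.46-fold in tendons 2 to 4 (mean log2 ratio 1.43 ± 0.50, SD, n = 4; exact permutation test, p = 0.13). It was 2.74- to 4.67-fold above CILP and 4.81- to 7.47-fold above CTGF, each with p = 0.13 by the exact permutation test.

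Thrombospondins bind collagens and other matrix proteins, and the levels of these were set beside THBS4. Against COL1A1, a chain of type I collagen, THBS4 was 0.479, 0.896, 1.54 and 0.882 times as abundant in TPM (mean log2 ratio -0.19 ± 0.69, SD, n = 4; exact permutation test, p = 0.625). THBS4 thus exceeded COL1A1 in tendon 3 alone, where COL1A1 was at 3672 TPM, and without tendon 1 the mean log2 ratio was 0.10. Against COL1A2 the ratio was 0.478, 0.834, 1.46 and 0.794 (mean log2 ratio -0.28 ± 0.66; exact permutation test, p = 0.5). In CPM, THBS4 stayed below COL1A2 in all 4 tendons. THBS4 stood at 0.370, 0.583, 0.374 and 0.490 times the proteoglycan gene DCN, and the ratio spanned 1.57-fold between tendons against 3.23-fold for COL1A1. Above COL3A1, a type III collagen chain, THBS4 was 6.51-, 8.63-, 3.63- and 2.37-fold. Both THBS4 and THBS1 exceeded FN1 (fibronectin) in every tendon in TPM, THBS4 by 2.68- to 4.99-fold and THBS1 by 1.06- to 2.20-fold. In CPM, THBS1 exceeded FN1 in 3 of 4 tendons. These ratios depend on the annotated transcript lengths, and that of COL1A1 was 3585 bases.

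The measured genes of angiogenesis that THBS1 and THBS2 are known to oppose were far below both members. Of 5 measured genes, 3 had a mean of at least 10 TPM, against 53.0% of named genes. These were VEGFC at 22.1 ± 2.09, KDR at 15.2 ± 2.83 and FLT1 at 12.1 ± 3.12 TPM (SD, n = 4). HGF had 3.91 ± 2.77 TPM and the endothelial nitric oxide synthase gene NOS3 3.08 ± 1.49 TPM. VEGFA, VEGFB and FGF2 had no entry, so their levels are not known here.

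THBS4 is known to bind the stress sensor ATF6 in the endoplasmic reticulum. ATF6 stood at 40.4, 31.1, 40.6 and 40.03 TPM in tendons 1 to 4, lowest in tendon 2, where THBS4 was highest. All 10 measured folding and ATF6 response genes had a mean of at least 10 TPM and 6 a mean of at least 100 TPM, with a median of 181 TPM, against 53.0%, 7.71% and 11.8 TPM over named genes. Of the 10, 0 ranged 2-fold, against 10.8% of all genes tested. The chaperone gene HSP90B1 had 652 ± 73.04 TPM, CANX (calnexin) 292 ± 15.3 TPM and PDIA6, a disulfide isomerase, 223 ± 23.8 TPM (SD, n = 4). MANF, a secreted stress-response gene, stood at 226, 265, 144 and 151 TPM, with tendons 1 and 2 above tendons 3 and 4 as for THBS4. Of the 10, 5 were highest in tendon 2, 4 in tendon 1 and 1 in tendon 3. Over the 7008 named genes whose mean was 10 TPM or more, these shares were 13.2%, 44.6% and 14.7%. The 5 include HSPA5, already named for its likeness to THBS4. They also include HSP90B1, a near tie at 712 TPM in tendon 2 and 710 TPM in tendon 1.

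THBS1 is known as a gene that responds to stretch and serum, and 14 such genes had an entry, with 7 highest in tendon 1, 5 in tendon 3 and 2 in tendon 4, beside the 44.6% of named genes that were highest in tendon 1. EGR1, an immediate early transcription factor gene, stood at 146, 29.1, 58.7 and 41.8 TPM in tendons 1 to 4. WWTR1, which encodes the coactivator TAZ, stood at 293, 203, 207 and 183 TPM and AMOTL2, a target of the same pathway, at 140, 124, 91.2 and 88.04 TPM. CYR61 did not share this, at 962, 1078, 1079 and 973 TPM. ANKRD1, which is also a muscle gene, reached 405 TPM in tendon 4, while the others had 55.3 TPM or less. The relation of these genes to the level of THBS1 in tendon 1 was not tested.

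Markers of other cells that express thrombospondins were measured beside the members. Platelets carry THBS1, and of 6 measured platelet and megakaryocyte genes 0 reached 10 TPM, against 53.0% of named genes. GP1BA, GP5 and GP9, which encode platelet glycoproteins, had between 0 and 4 counts in each tendon, and ITGA2B had 1.69 ± 0.660 TPM (SD, n = 4). SELP and TUBB1 had 4.02 ± 1.20 and 1.33 ± 0.332 TPM. The 6 genes summed to 6.17, 6.19, 8.37 and 8.82 TPM in tendons 1 to 4, lowest in tendon 1, where THBS1 was highest. This order rests on SELP, which is also an endothelial gene: without it the other 5 summed to 3.82, 2.10, 3.25 and 4.28 TPM, lowest in tendon 2. Of the 6, TUBB1, GP9 and GP1BA were highest in tendon 1, beside 44.6% of the named genes whose mean was 10 TPM or more. GP9 had 3 counts in tendon 1 and 1 in each other tendon. GP1BA had 1 count in tendons 1 and 3 and 0 in the others. PF4 and PPBP had no entry.

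Skeletal muscle also expresses THBS4. The 33 measured muscle genes, led by ACTA1 (skeletal actin) at 7547 ± 4281 TPM, summed to 12469, 46099, 24888 and 35562 TPM in tendons 1 to 4. Of the 33, 17 were highest in tendon 2 and 16 in tendon 4. Over the 7008 named genes whose mean was 10 TPM or more, these shares were 13.2% and 27.5%. Tendon 1, with the lowest muscle sum, had a THBS4 level of 7286 TPM, against 7922 TPM in tendon 2, which had the highest. After mitochondrial and muscle genes were left out of the total, the mean of THBS4 rose from 6399 to 7452 TPM, by less than 1 SD. This step raises every remaining gene and keeps any THBS4 transcripts of muscle, so it cannot show their part. The 6 measured genes of the junction between muscle and tendon summed to 392, 374, 336 and 933 TPM, highest in tendon 4, where THBS4 was lowest. ANKRD1, also a muscle gene, gave 405 TPM of the sum in tendon 4 and between 41.1 and 55.3 TPM in the other tendons. Of the 6, 5 were highest in tendon 4 and 1 in tendon 1, against 27.5% and 44.6% of the 7008 named genes. COL22A1, the collagen of that junction, stood at 45.9, 61.5, 52.3 and 114 TPM. The 7 measured tenocyte genes, mostly FMOD, summed to 9255, 10417, 4722 and 3835 TPM, highest in tendon 2 and lowest in tendon 4 as THBS4 was. Without FMOD the other 6 summed to 1395, 1139, 915 and 833 TPM, highest in tendon 1. Of the 7, FMOD alone was highest in tendon 2, while 4 were highest in tendon 1 and 2 in tendon 4, among them TNMD at 158, 169, 31.7 and 187 TPM. Over the 7008 named genes, 13.2% were highest in tendon 2, 44.6% in tendon 1 and 27.5% in tendon 4. Of the 8 measured cartilage genes, 5 were highest in tendon 1, 1 in tendon 2 and 2 in tendon 3. Over the 7008 named genes these shares were 44.6%, 13.2% and 14.7%. Among the cartilage genes highest in tendon 1, COL2A1 stood at 281, 195, 79.9 and 130 TPM and ACAN (aggrecan) at 76.3, 53.0, 68.2 and 41.1 TPM. COL10A1 was highest in tendon 2 and lowest in tendon 1, at 9.39, 52.0, 21.7 and 18.9 TPM. SOX9, at 28.6, 14.6, 32.6 and 15.8 TPM, and COL9A1, at 0.875, 0.340, 1.11 and 0.410 TPM, were highest in tendon 3. COL9A1, COL9A2 and MATN3 were low, with means of 0.683, 0.629 and 1.93 TPM. The part of these cells in the levels of the thrombospondins was not tested.

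The annotation around the members bears on how their reads were assigned. The locus of THBS1 overlaps that of FSIP1 on the opposite strand by 1061 bases, and without a record of strand use reads from the overlap cannot be told apart. FSIP1 had 0.316 ± 0.130 TPM (SD, n = 4). The counts of THBS1, THBS2 and THBS4 were whole numbers (within 0.005) in 4 of 4 tendons, while those of THBS3 were whole in 0 of 4. Of all values in the table, 71.9% were whole. The THBS3 locus lies within an unnamed gene model of the opposite strand, listed at 0 counts in all tendons, and 1616 bases from MTX1, which had 17.6 ± 1.61 TPM.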

How the data were processed

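Poly(A) RNA of 4 tendons was sequenced. The authors deposited estimated counts for each transcript in 1 column per tendon. The table also held, per the file headers, Ensembl identifiers, coordinates and annotated lengths in bases. Per the submitters' processing notes, kallisto 0.42.4, bcl2fastq and FastQC and the build OryCun2.0 were named, without roles; filters and strand use are not given in the sources used here. Totals ran from 19759696 to 30646052 counts per tendon.

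TPM were computed from counts and annotated lengths over all 21589 transcripts and summed per gene; effective lengths were not used. Counts rounded to whole numbers gave TMM factors (edgeR 4.0.16) and DESeq2 1.42.0 size factors as alternatives, for genes with at least 1 CPM in 2 tendons. No model was fitted, as there is 1 group. Against TPM, TMM scaling moved the median gene by up to 0.12 (log2, tendon 2). Ratios were taken within a tendon, with an exact sign-flip permutation test. Spread between tendons includes animal, dissection and library, which cannot be told apart. Range and likeness steps were tested on simulated data. Python 3.11.15, pandas 2.3.3 and scipy 1.17.1 were used.

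Members and lists were chosen with earlier results of these data known. Named genes were the members, 3 named genes either side by mean TPM, the 5 most alike in pattern, up to 5 per list by mean TPM, and genes behind counts of 5 or fewer. Others (TGFB2, TGFB3, ATF6, EGR1 among stretch genes, CACNA2D1, GP1BA and loci beside the members) were chosen after their values were seen. Not every gene of the rule is printed. Protein and promoter sequences were not used here.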

Additional observations from a re-analysis of the deposited data

Results flagged for a closer look

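In 117 values, a tendon that stands away from the other 3 was looked for by the gap of the highest or lowest tendon as a share of the whole range. Of these, 14 passed Dixon's critical value of 0.83. For independent values chosen without regard to their pattern, chance would give about 5.85. Here some values share genes and others were chosen for their likeness to a member, so the 14 cannot be weighed against that number. THBS1 passed in TPM with a ratio of 0.896, its level in tendon 1 being 4311 TPM against at most 2470 TPM in the others, but had 0.761 in TMM-scaled CPM, below the critical value. Its ratio to ITGB1, also highest in tendon 1, had 0.876, and its ratio to LRP1, lowest in tendon 3, had 0.873. The ratio of THBS3 to THBS2, highest in tendon 3 at a log2 value of -0.38 against -1.75 or lower elsewhere, had 0.890.

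Genes chosen for their likeness to THBS1 share its tendon by that choice: CCDC57 (0.976), PLCL1 (0.904), ST8SIA1 (0.869) and IL34 (0.856) were all highest in tendon 1. In TMM-scaled CPM, CCDC57 (0.856) and PLCL1 (0.923) passed, while ST8SIA1 (0.737) and IL34 (0.693) were below the critical value. USO1, beside THBS3 in level, had 0.901 with tendon 1 highest, and 0.270 in TMM-scaled CPM, below the critical value. ATF6 had 0.936 with tendon 2 lowest, at 31.1 TPM, and 0.732 in TMM-scaled CPM, also below it. The summed genes of the muscle and tendon junction had 0.906 and ANKRD1, which is among them, 0.961, both highest in tendon 4. ANKRD1 gave 405 of the 933 TPM of that sum in tendon 4, and the sum without ANKRD1 was not tested. HGF had 0.83 with tendon 4 highest, at 8.02 TPM, and 0.762 in TMM-scaled CPM, below the critical value. GP9 had 0.972 with tendon 1 highest, which rests on 3 counts there against 1 in each other tendon.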

How the results depend on the processing

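In CPM the mean levels were 12274 (THBS4), 8678 (THBS1), 827 (THBS2) and 206 (THBS3), and the family share of counts was 2.20%; these units are not comparable with TPM, and the order of the 4 genes was the same. The range from lowest to highest tendon was 1.84- and 1.85-fold for THBS1, 2.91- and 2.92-fold for THBS2 and 1.89- and 1.89-fold for THBS4 with TMM and DESeq2 scaling. With each tendon left out in turn it ran from 1.09 to 1.91 (THBS1), 1.37 to 3.02 (THBS2), 1.32 to 1.50 (THBS3) and 1.40 to 1.68 (THBS4). Genes ranging at least 2-fold numbered 940 of 8729 over all 4 tendons. With each tendon left out they ran from 488 of 8698 without tendon 1 to 826 of 8710 without tendon 3. With no minimum on the mean they numbered 4420 of the 14860 genes with counts above 0 in every tendon. The mean log2 ratio of THBS4 to COL1A1 ran from -0.47 to 0.10 with each tendon left out, and was above 0 without tendon 1; the cause was not tested. The 6 ratios between members kept their direction in CPM, with a pseudocount of 1 TPM and with each tendon left out. Exact tests over 4 tendons cannot pass 0.05, so their p-values say nothing about stability. No paired analysis was possible because there is 1 group. Depth does not limit the members, the lowest of which had 4607 counts in tendon 1.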
